A study of Rattus norvegicus with 4 samples.

Results

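A set of 40 long non-coding RNA (lncRNA) transcripts of neonatal rat cardiomyocytes, the contracting muscle cells of the heart, stood lower in high glucose than in normal glucose at both times studied. They were selected on the measured values themselves. A transcript was kept when its mean count over the 4 libraries was 20 or more and its level plus 0.5 in high glucose was at most 0.5 times that in normal glucose, at 24 h and again at 48 h. The level is in FPKM (a read count scaled by transcript length and by a library total). A stretch of 1 Mb on chromosome 13 was left out. Of 17934 transcripts listed in any library, 5033 outside that stretch passed the count minimum, and 40 of them met the rule at both times, which is 0.795%. The same rule turned round, a rise of 2-fold or more at 24 h and 48 h, held for 35 (0.695%). Because these transcripts were chosen by their drop in high glucose, its size is given below as a description without a test.

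Cells were kept in high glucose medium (33 mmol/l glucose) for 24 h or 48 h, and control cells in normal glucose medium (5 mmol/l glucose with 28 mmol/l mannitol added to match the osmolality) for the same times. All cells came from Sprague-Dawley rats aged 1 to 2 days and were plated in M199 medium that held 2 mM of carnitine and 5 mM each of taurine and creatine. High glucose served the study as a way to induce apoptosis and oxidative stress. Each of the 4 combinations of medium and time was 1 library of total RNA, so differences between libraries could not be set against replicate spread, and p-values are left out. The labels do not say how many animals or cultures stood behind a library. The tables list lncRNA transcripts without protein-coding genes, so the labelled cell type was not checked against marker genes here. In bulk RNA of this kind, less RNA per cell and fewer cells of a type cannot be told apart.

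LncRNAs are transcripts without a long protein-coding reading frame. Some act in the nucleus on nearby genes or on chromatin, others bind proteins or small RNAs in the cytoplasm, and for many no function is known. In heart muscle cells lncRNAs have been studied for parts in hypertrophy, contraction and cell death. Libraries from total RNA, as used here, also capture RNA without a poly(A) tail. In an annotation, a spliced lncRNA joins several exons, whereas a single-block lncRNA covers its whole genomic span without a gap. All 40 transcripts carry identifiers of NONCODE, a catalogue of non-coding RNAs. Since no gene names accompany these identifiers, each transcript is described under its identifier with its coordinates in rat build rn6, and no roles are assigned. No sequence of that build was used here, so no sequences are shown.

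Depth was similar between libraries. The lncRNA counts summed to 1069067 in high and 846946 in normal glucose at 24 h, and to 904979 in high and 1075428 in normal glucose at 48 h. The library totals behind the FPKM values, recovered from count, length and FPKM, lay between 11877876 and 15654183. Counts divided by these totals, without the length, are given as CPM, and 1 read was worth between 0.0639 and 0.0842 CPM. A drop of 2-fold or more in high glucose was seen for 168 of the 5033 transcripts (3.34%) at 24 h and for 373 (7.41%) at 48 h. By the rule the 40 are the transcripts on both lists, 23.8% of the first and 10.7% of the second. These shares describe the choice and were not tested. The median log2 ratio over all 5033 was -0.04 at 24 h and -0.18 at 48 h. The 48 h value moved to -0.02 with TMM factors and to -0.01 with size factors, which rescale the libraries to a common centre, and 37 of the 40 still met the rule under each. The same 3 were lost under both, NONRATT003336.2, NONRATT005775.2 and NONRATT020414.2, each at 48 h.

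Together the 40 transcripts held 2262 reads in high and 12786 in normal glucose at 24 h, or 0.212% of the lncRNA counts in high and 1.51% in normal glucose. At 48 h they held 2802 reads in high and 16982 in normal glucose, or 0.310% in high and 1.58% in normal glucose. Their median level was 0.733 FPKM in high and 9.09 FPKM in normal glucose at 24 h, and 0.896 FPKM in high and 7.99 FPKM in normal glucose at 48 h. In normal glucose these medians lay above those of all 5033, 4.66 FPKM at 24 h and 4.67 FPKM at 48 h. The rule favours this, since a transcript low in high glucose reached the count minimum mainly through its normal glucose reads. The 35 transcripts higher in high glucose likewise had a median of 6.90 FPKM there, averaged over both times, against 4.33 FPKM for all 5033. The median log2 ratio of (FPKM + 0.5), high over normal glucose, was -2.43 at 24 h and -1.98 at 48 h. For 16 of the 40 the drop was at least 4-fold at both times on that scale, and for 5 at least 8-fold. In 35 of the 40, both high glucose libraries lay below both normal glucose libraries, and in 5 the ranges of the media overlapped across times. Within each time the rule fixes the direction, so this separation follows in large part from the choice of transcripts. Its share over all 5033 is not given here. The counting interval of the CPM ratio (95%, exact Clopper-Pearson method given the total of both counts) lay beyond 2-fold at both times for 29 of the 40. The choice of transcripts favours this count too, and its share over all 5033 is likewise not given. These intervals cover counting error only and hold no spread between cultures or animals, since each group has 1 library. Without molecular identifiers, PCR copies of a molecule are counted again, which can make the intervals too narrow.

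**Figure D1:**
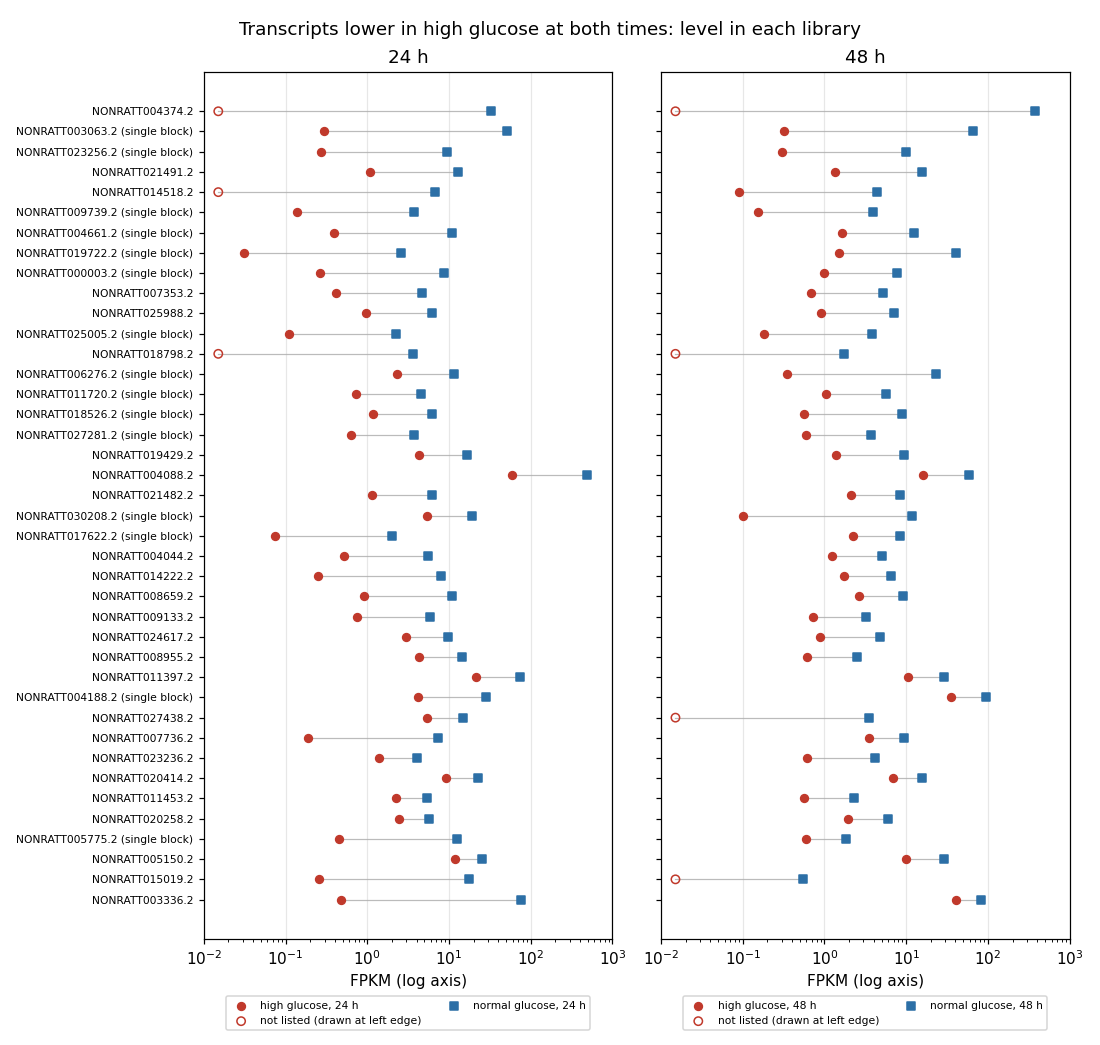
Level in FPKM (log axis) of each of the 40 transcripts in the high glucose library (red circles) and the normal glucose library (blue squares), at 24 h on the left and 48 h on the right. Open circles at the left edge mark transcripts not listed in high glucose, 3 at 24 h and 4 at 48 h, and rows run from the deepest to the shallowest drop by the smaller drop of both times.

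Ranked by the smaller of their drops at 24 h and 48 h, on the scale of FPKM + 0.5, the transcripts were led by NONRATT004374.2 (chr10:48880225-48881896, spliced, 718 nt). It had 0 reads in high and 280 in normal glucose at 24 h, and 0 reads in high and 4006 in normal glucose at 48 h. Against a floor of 3 counts in the library, that is at least 123-fold lower at 24 h and at least 1279-fold lower at 48 h. The count of 0 in high glucose allows up to 0.192 CPM at 24 h and 0.211 CPM at 48 h. In normal glucose it was 11.4-fold higher at 48 h than at 24 h, the highest time ratio of the 40 but for NONRATT019722.2 (counting interval 10.1 to 13). No other listed transcript overlapped it.

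NONRATT003063.2 (chr1:176940418-176942159, a single block of 1742 nt) followed, with the same 8 reads in each high glucose library against 1054 at 24 h and 1710 at 48 h in normal glucose. Its level was 0.293 FPKM in high and 50.9 FPKM in normal glucose at 24 h, and 0.323 FPKM in high and 66.1 FPKM in normal glucose at 48 h. The fold was 174 at 24 h (87.8 to 403) and 205 at 48 h (104 to 475), and these intervals overlap. Within each medium the level was close between the times. The ratio of 48 h over 24 h was 1.10 in high glucose (0.360 to 3.36) and 1.30 in normal glucose (1.20 to 1.40).

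A further group of the deepest drops had few reads in high glucose and drops of like size at both times. NONRATT023256.2 (chr5:74251269-74251738, a single block of 470 nt) had 2 reads in each high glucose library, against 53 at 24 h and 70 at 48 h in normal glucose. NONRATT009739.2 (chr14:10343290-10344206, a single block of 917 nt) likewise had 2 reads in each high glucose library, against 41 and 53 in normal glucose. These are ratios on few reads, and the intervals are wide, 9.20 to 296 at 24 h for the first and 7.02 to 231 for the second. With 2 reads in each high glucose library, a change over time in high glucose is not measured for either (0.0798 to 15.2). NONRATT021491.2 (chr4:100221871-100223870, spliced, 1477 nt) had more reads and also drops of like size. It stood at 25 reads in high and 226 in normal glucose at 24 h and at 28 in high and 339 in normal glucose at 48 h, which is 11.9-fold (7.87 to 18.8) and 11.6-fold lower (7.88 to 17.7).

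Among the other members of the 8 deepest, NONRATT004661.2 and NONRATT019722.2 moved more between times. NONRATT014518.2 had too few reads in high glucose for its drops to be compared between times. NONRATT014518.2 (chr19:19899539-19913553, spliced, 772 nt) had 0 reads in high and 62 in normal glucose at 24 h, and 1 in high and 51 in normal glucose at 48 h. NONRATT004661.2 (chr10:70310274-70312073, a single block of 1800 nt) had 11 reads in high and 230 in normal glucose at 24 h, and 42 in high and 330 in normal glucose at 48 h. Its drop was 27.6-fold at 24 h (15.1 to 56.0) and 7.52-fold at 48 h (5.45 to 10.6), with intervals that do not overlap. NONRATT019722.2 (chr3:127528410-127530493, a single block of 2084 nt) had 1 read in high and 64 in normal glucose at 24 h, and 45 in high and 1257 in normal glucose at 48 h. It was the transcript with the steepest increase over time in normal glucose, 15.7-fold (12.2 to 20.5), and it also increased in high glucose, by 49.5-fold on 1 read (8.45 to 1999). NONRATT000003.2 (chr1:1218992-1220928, a single block of 1937 nt) lay just behind these, with 8 reads in high and 200 in normal glucose at 24 h, and 27 in high and 219 in normal glucose at 48 h. Its drop was 32.9-fold at 24 h (16.4 to 77.4) and 7.77-fold at 48 h (5.19 to 12.1).

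Only NONRATT004374.2 and NONRATT018798.2 were not listed in either high glucose library. NONRATT018798.2 (chr3:151126712-151151158, spliced) was, at 6872 nt, also the longest of the 40. It had 293 reads at 24 h and 178 at 48 h in normal glucose, so it was lower by at least 129-fold at 24 h and at least 56.8-fold at 48 h in high glucose. Its level in normal glucose was 3.59 FPKM at 24 h and 1.74 FPKM at 48 h. In 3 further transcripts 1 high glucose library stood at 0 reads, NONRATT014518.2 at 24 h and NONRATT027438.2 and NONRATT015019.2 at 48 h. In all, 13 of the 40 had at most 3 reads in at least 1 high glucose library.

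The 5 transcripts with the highest mean CPM in normal glucose were NONRATT004088.2, NONRATT004188.2, NONRATT004374.2, NONRATT003063.2 and NONRATT019722.2, and the first 2 ranked 41 and 49 by mean CPM among all listed transcripts. NONRATT004088.2 (chr10:14088182-14089332, spliced, 905 nt) stood at 844 reads in high and 5204 in normal glucose at 24 h, and at 207 in high and 782 in normal glucose at 48 h. Per length it had the highest single level of the 40, 484 FPKM in normal glucose at 24 h, against 59.6 FPKM in high glucose at that time. Its drop in high glucose was 8.13-fold at 24 h (7.55 to 8.75) and 3.62-fold at 48 h (3.10 to 4.24). Between times it dropped in both media, to 0.270 of its 24 h level in high glucose (0.231 to 0.315) and to 0.120 in normal glucose (0.111 to 0.130). The level in high glucose at 24 h was thus close to that in normal glucose at 48 h, 58.2 FPKM.

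NONRATT004188.2 (chr10:31237556-31240582), at 3027 nt the longest single block of the 40, took the opposite course over time. It had 197 reads in high and 1013 in normal glucose at 24 h, and 1530 in high and 4307 in normal glucose at 48 h. At 48 h it was therefore 8.55-fold higher than at 24 h in high glucose (7.36 to 9.96) and 3.40-fold higher in normal glucose (3.17 to 3.64). The drop in high glucose was 6.78-fold at 24 h (5.81 to 7.93) and 2.70-fold at 48 h (2.54 to 2.86).

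**Figure D2:**
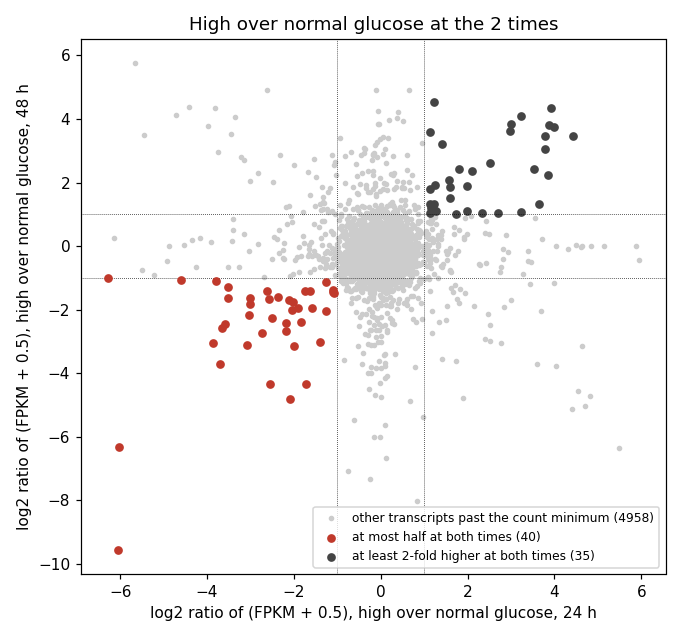
Log2 ratio of (FPKM + 0.5), high over normal glucose, at 24 h (horizontal) and 48 h (vertical) for the 5033 transcripts past the count minimum. The 40 transcripts lower by 2-fold or more at both times (red) fill the lower left and the 35 higher by as much (dark grey) the upper right, with dotted lines at 2-fold.

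The drops at 24 h and 48 h were of like size in 18 of the 40, within 0.5 on the log2 scale. In these 18 the counting intervals at the 2 times all overlapped. The choice of the 18 favours that, and where reads are few the intervals are too wide to show like size. Besides NONRATT003063.2, NONRATT023256.2, NONRATT021491.2 and NONRATT009739.2, this group held NONRATT027281.2 (chr7:137804014-137805542, a single block of 1529 nt), which together with NONRATT009739.2 had the smallest difference between both times. NONRATT027281.2 stood at 15 reads in high and 68 in normal glucose at 24 h and at 13 in high and 84 in normal glucose at 48 h, 5.97-fold lower (3.38 to 11.3) and 6.19-fold lower (3.43 to 12.1). Its ratio of 48 h over 24 h was 0.954 in high glucose (0.418 to 2.15) and 0.988 in normal glucose (0.709 to 1.38). In high glucose that interval does not exclude a 2-fold change.

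Most of the remaining members of this group are named so that all 40 are accounted for. NONRATT011720.2 (chr16:3867193-3868075, a single block of 883 nt) had 10 and 13 reads in high glucose at 24 h and 48 h and 48 and 74 in normal glucose. NONRATT025005.2 (chr6:75540128-75541287, a single block of 1160 nt) had 2 and 3 reads in high glucose and 31 and 66 in normal glucose. NONRATT005150.2 (chr10:109775013-109783395, spliced, 978 nt) had 180 and 140 reads in high glucose and 295 and 424 in normal glucose. In each of these the media stayed apart at both times, and none changed 2-fold over time on the scale of FPKM + 0.5. By contrast, 3 spliced transcripts of the group were lower at 48 h by 2-fold or more in both media on that scale. NONRATT024617.2, described with its locus, passed that limit in high glucose only, though its CPM was lower in both media, at 0.299 of its 24 h CPM (0.170 to 0.502), against 0.492 in normal glucose (0.384 to 0.629). NONRATT008955.2 (chr13:89498043-89518944, 1283 nt) had 86 and 11 reads in high glucose at 24 h and 48 h and 217 and 47 in normal glucose. NONRATT011397.2 (chr16:20294419-20295283, 682 nt) had 231 and 102 reads in high glucose and 597 and 294 in normal glucose. NONRATT011453.2 (chr16:23558600-23623177, 619 nt) had 22 and 5 reads in high glucose and 40 and 21 in normal glucose. Their decline with time ran in parallel in the media, for example to 0.141 of the 24 h level in high glucose (0.0677 to 0.265) and 0.173 in normal glucose (0.124 to 0.238) for NONRATT008955.2. NONRATT017622.2 (chr20:7219444-7220293, a single block of 850 nt) increased with time instead, with 1 and 27 reads in high glucose and 20 and 106 in normal glucose. It falls in this group through the added 0.5 FPKM. Its CPM was 26.4-fold lower at 24 h (4.22 to 1093) and 3.76-fold lower at 48 h (2.44 to 5.97).

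In 14 of the 40 the drop was deeper at 24 h by more than 0.5 on the log2 scale, and in 8 of these 14 the intervals of both times did not overlap. In 3 of the 14, NONRATT014518.2, NONRATT018798.2 and NONRATT015019.2, at least 1 high glucose library had 0 reads, so the difference between times depends on the added 0.5 and is not measured. The other 11 had reads in both high glucose libraries. The largest difference between the times was that of NONRATT003336.2 (chr1:213746990-213751373, spliced, 536 nt). It had 4 reads in high and 483 in normal glucose at 24 h, a 159-fold drop (61.8 to 586), and 311 in high and 660 in normal glucose at 48 h, a 2.03-fold drop (1.77 to 2.33). Normal glucose stayed level at 75.9 and 82.9 FPKM, while the level in high glucose was 85.6-fold higher at 48 h than at 24 h (33.1 to 316). Its drop at 48 h was 1.80-fold with TMM factors and 1.77-fold with size factors, and it met the rule under neither. NONRATT015019.2 (chr2:44279291-44294436, spliced, 749 nt) had 3 reads in high and 158 in normal glucose at 24 h, but 0 in high and only 6 in normal glucose at 48 h. Its 48 h drop rests on those 6 reads and is only a lower bound, at least 1.92-fold.

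In others of this group either high glucose was higher at 48 h or normal glucose was lower. NONRATT007736.2 (chr12:9997845-9999282, spliced, 683 nt) had 2 reads in high and 60 in normal glucose at 24 h, and 34 in high and 95 in normal glucose at 48 h. NONRATT014222.2 (chr19:37863132-37864778, spliced, 1015 nt) had 4 reads in high and 97 in normal glucose at 24 h, and 25 in high and 97 in normal glucose at 48 h. Both were higher at 48 h in high glucose, while normal glucose stayed within 2-fold. NONRATT005775.2 (chr10:67866932-67869199, a single block of 2268 nt) showed the other form, with 16 reads in high and 340 in normal glucose at 24 h, and 19 in high and 61 in normal glucose at 48 h. Its drop of 28.0-fold at 24 h (17.0 to 49.6) was 3.07-fold at 48 h (1.81 to 5.45), when normal glucose stood at 0.143 of its 24 h level (0.107 to 0.189). With its log2 ratio at 48 h of -1.09 moved to -0.97 by TMM factors and -0.96 by size factors, it no longer met the rule. NONRATT008659.2 (chr13:41720151-41738918, spliced, 424 nt) had 6 and 16 reads in high glucose at 24 h and 48 h and 54 and 58 in normal glucose. NONRATT009133.2 (chr13:111235913-111276907, spliced, 689 nt) had 8 and 7 reads in high glucose and 48 and 33 in normal glucose. For both, the intervals of the 24 h and 48 h folds overlapped.

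In 8 of the 40 the drop was deeper at 48 h by more than 0.5, with intervals apart in 3, NONRATT006276.2, NONRATT030208.2 and NONRATT027438.2. NONRATT004374.2 falls among the 8 by its higher normal glucose level at 48 h, since with 0 reads in both high glucose libraries its drops are lower bounds and were not compared between times. NONRATT006276.2 (chr10:103946886-103948314, a single block of 1429 nt) had 52 reads in high and 197 in normal glucose at 24 h, 4.99-fold lower (3.66 to 6.92), and 7 in high and 496 in normal glucose at 48 h, 67.8-fold lower (32.7 to 170). Here the media moved apart in both directions, down in high and up in normal glucose. NONRATT030208.2 (chr9:85386755-85388161, a single block of 1407 nt) had 118 reads in high and 316 in normal glucose at 24 h, 3.53-fold lower (2.85 to 4.40), and 2 in high and 244 in normal glucose at 48 h, 117-fold lower (32.0 to 970). NONRATT027438.2 (chr8:13861289-13871354, spliced, 1301 nt) had 109 reads in high and 230 in normal glucose at 24 h, and 0 in high and 68 in normal glucose at 48 h. Both therefore lost most of their reads in high glucose after 24 h.

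The other 4 transcripts in this group had overlapping intervals. NONRATT019429.2 (chr3:72070386-72071866, spliced, 607 nt) had 41 and 12 reads in high glucose at 24 h and 48 h and 120 and 84 in normal glucose. NONRATT023236.2 (chr5:64850027-64863302, spliced, 684 nt) had 15 and 6 reads in high glucose and 33 and 42 in normal glucose. NONRATT018526.2 (chr3:113818785-113819163), at 379 nt the shortest of the 40 and a single block, had 7 and 3 reads in high glucose and 28 and 50 in normal glucose. NONRATT019722.2 falls in this group only through the added 0.5 FPKM, since its CPM ratio was 84.3-fold lower at 24 h (14.6 to 3383) and 26.7-fold lower at 48 h (19.9 to 36.9).

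**Figure D3:**
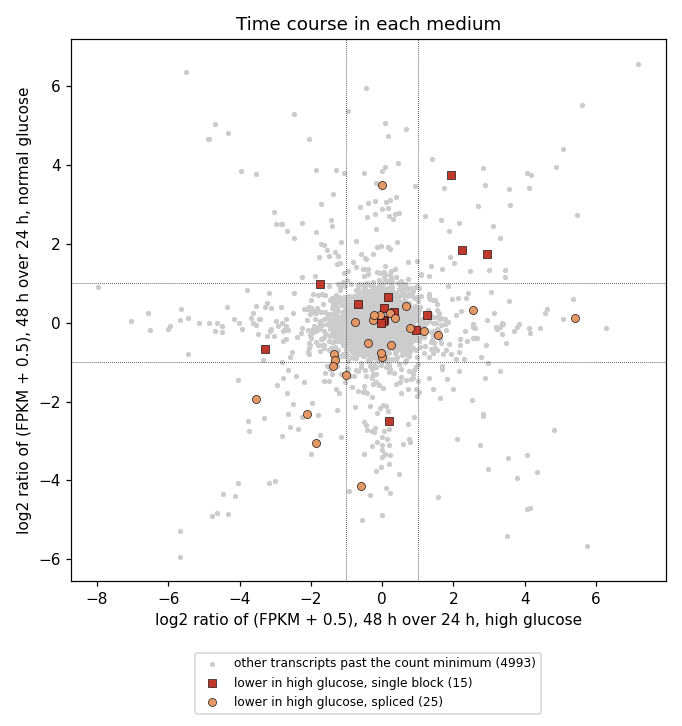
Log2 ratio of (FPKM + 0.5), 48 h over 24 h, in high glucose (horizontal) and in normal glucose (vertical). The 15 single-block (red squares) and 25 spliced (orange circles) transcripts lower in high glucose are drawn over the other 4993 transcripts past the count minimum (grey), with dotted lines at 2-fold.

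The time course is a contrast that the rule did not use, although it draws on the same libraries. In high glucose, 8 of the 40 were higher at 48 h than at 24 h by 2-fold or more, against 3.74% of all 5033 transcripts, and 9 were lower by as much, against 7.69%. In normal glucose, 4 of the 40 were higher at 48 h by 2-fold or more, against 2.86%, and 7 were lower, against 3.54%. The medians were near 0 in both media, 0.02 in high and 0.03 in normal glucose, so the 40 had no common direction over time. The median size of the change, whatever its sign, was 0.72 in high and 0.50 in normal glucose, against 0.30 in high and 0.21 in normal glucose over all. Of the 40, 20 stayed within 2-fold over time in both media, against 85.2% of all 5033. The median count of the 40 in high glucose was 9 reads at 24 h and 13 at 48 h, so many of their time ratios there rest on few reads. All these ratios use the libraries that chose the 40, so nothing further is read from the shares. Among the 35 transcripts higher in high glucose at both times, 0 were higher and 4 lower by 2-fold or more at 48 h in high glucose, and 4 were higher and 5 lower in normal glucose. The 2 sets were not tested against each other.

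Structure was not used by the rule, though length enters it through the FPKM scale. Of the 40, 15 (37.5%) were single blocks and 25 were spliced. These shares were not tested, because the 40 were chosen by the rule and are no random draw. Over all 5033 transcripts 49.6% were single blocks, and among the 35 higher in high glucose 31.4%. Single blocks made up 10 of the 16 transcripts with drops of 4-fold or more at both times, against 5 of the other 24. That division was drawn after the values were seen and is not tested. Single blocks had a median log2 ratio of -2.54 at 24 h and -2.67 at 48 h, and spliced transcripts of -2.36 and -1.67. The median length was 866.5 nt for the 40 and 1019 nt for all. Single blocks among the 40 had a median of 1429 nt, against 1217 nt over all single blocks, and 3 of the 15 reached 2 kb. Spliced transcripts had a median of 739 nt, against 873 nt over all spliced ones, with a median genomic span of 5203 bases that reached 73440 in NONRATT025988.2.

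**Figure D4:**
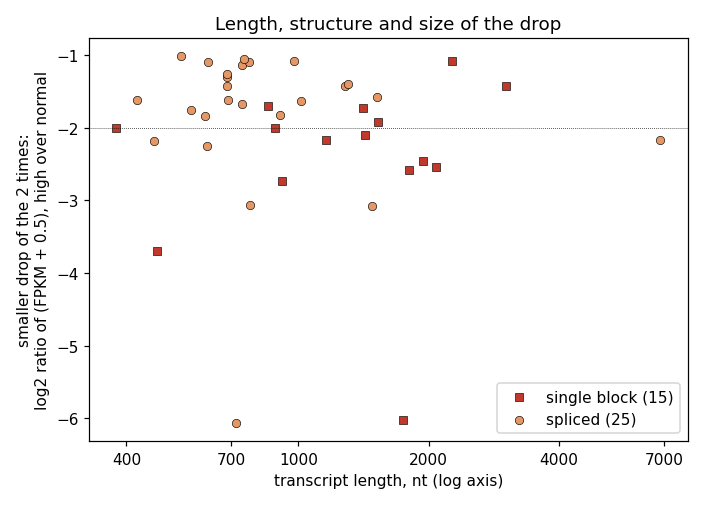
Transcript length in nt (log axis) against the smaller drop of both times, as log2 ratio of (FPKM + 0.5), high over normal glucose, for 15 single-block (red squares) and 25 spliced (orange circles) transcripts. The dotted line at -2 marks a 4-fold drop at both times, below which lie 10 single blocks and 6 spliced transcripts.

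The 40 lay on 16 chromosomes and were mostly far apart. Chromosome 10 held 8 of them (20%), against 8.03% of all 5033 transcripts, chromosomes 3 and 4 held 4 each, and chromosomes 11, 15, 17, 18 and X held 0. Chromosome 10 was singled out after the values were seen, and its share was not tested. The closest pair, NONRATT021482.2 (chr4:99739650-99742369, spliced, 563 nt) and NONRATT021491.2, lay 479.5 kb apart, and the next closest, NONRATT005775.2 and NONRATT004661.2 on chromosome 10, were 2441 kb apart. No 2 of the 40 overlapped. A locus was taken as all listed transcripts linked by spans that share 1 base or more. By this measure 25 of the 40 (62.5%) were alone at their locus, against 65.9% of all. This included all 15 single blocks, but most single blocks over all 5033 transcripts were alone too, 2142 of 2495.

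The surroundings of the 40 are given by the transcripts closest to them. Within 100 kb, between midpoints and outside the locus, 46 transcripts past the count minimum lay near 20 of the 40. Of these 46, 0 met the rule, against 0.795% of all transcripts. At 24 h 3 of the 46 (6.52%) were lower by 2-fold or more, against 3.34% of all, and 1 was higher. At 48 h 0 were lower, against 7.41% of all, and 2 were higher. With 46 transcripts these shares are too coarse to set the surroundings apart from the rest. Their median log2 ratio was 0.01 at 24 h and -0.20 at 48 h, close to the medians of all 5033. The nearest, NONRATT023257.2, lay 0.636 kb from NONRATT023256.2 and had 328 reads in high and 243 in normal glucose at 24 h, and 302 in high and 293 in normal glucose at 48 h. Its CPM ratio of 1.02 and 1.08 stands beside drops of 34.9-fold (9.20 to 296) and 33.5-fold (8.94 to 282) in NONRATT023256.2.

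The 15 transcripts that shared a locus were all spliced, with between 1 and 15 others listed there. Of these others, 18 passed the count minimum, and 14 of the 18 (77.8%) were within 2-fold between media at both times, against 84.8% of all 5033. Of the 18, 0 met the rule, 2 (11.1%) were higher by 2-fold or more at 24 h, against 3.32% of all, and 2 (11.1%) were lower at 48 h, against 7.41%. Their median log2 ratio was -0.19 at 24 h and -0.45 at 48 h. When the reads of a locus were summed, 6 of the 15 sums stayed lower in high glucose by 2-fold or more at both times and 5 were within 2-fold at both times. Not given in the sources used here is how the authors assigned reads to overlapping transcripts, so the division of reads within a locus is uncertain.

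**Figure D5:**
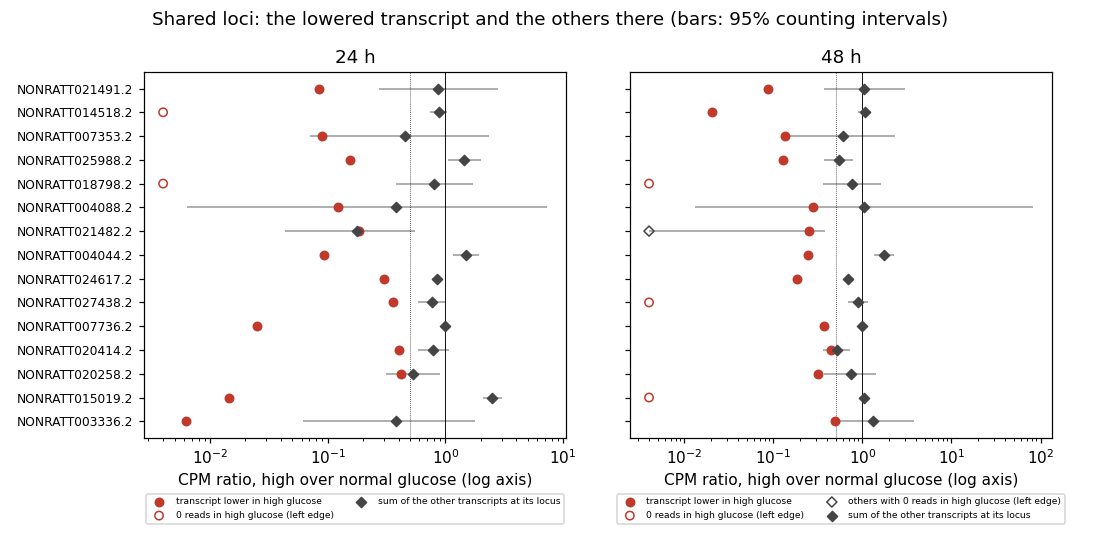
CPM ratio, high over normal glucose (log axis), at the 15 shared loci, for the lowered transcript (red circles) and for the sum of the other transcripts at its locus (dark diamonds, with 95% counting intervals), at 24 h and 48 h. Open symbols at the left edge mark 0 reads in high glucose, the solid line marks equal levels and the dotted line 2-fold lower.

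At several loci the overlapping transcripts held their level or stood higher where the lowered transcript dropped. NONRATT014518.2 made up 0% of the reads of its locus in high and 19.6% in normal glucose at 24 h, and 0.372% in high and 16.1% in normal glucose at 48 h. NONRATT014517.2, whose span nearly matches, had 259 reads in high and 213 in normal glucose at 24 h, and 221 in high and 220 in normal glucose at 48 h. Another transcript of nearly the same span, NONRATT014519.2, had 5 reads in high and 0 in normal glucose at 24 h, and 10 in high and 0 in normal glucose at 48 h. It is named after its values were seen, since it did not reach the count minimum.

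NONRATT004044.2 (chr10:852982-859183, 739 nt) had 6 reads in high and 49 in normal glucose at 24 h, and 13 in high and 55 in normal glucose at 48 h. NONRATT004042.2 (chr10:837324-859183, 3286 nt), which covers it, had 175 reads in high and 90 in normal glucose at 24 h, and 155 in high and 92 in normal glucose at 48 h, a ratio of 1.48 (1.14 to 1.92) and 1.76 (1.35 to 2.30). The sum of the locus had a ratio near 1, at 1.01 (0.804 to 1.26) and 1.20 (0.956 to 1.5). At the locus of NONRATT015019.2 the overlapping transcript stood higher at 24 h. NONRATT015017.2 (chr2:44279208-44293290, 633 nt) had 471 reads in high and 142 in normal glucose at 24 h, a ratio of 2.52 (2.08 to 3.06), and 442 in high and 443 in normal glucose at 48 h, a ratio of 1.04 (0.911 to 1.19). The locus sum had ratios of 1.20 (1.03 to 1.39) at 24 h and 1.03 (0.902 to 1.18) at 48 h. NONRATT007736.2 lay within NONRATT007735.2, which was far more abundant at 3321 reads in high and 2529 in normal glucose at 24 h, and 3282 in high and 3461 in normal glucose at 48 h. The ratio of NONRATT007735.2 was 0.996 (0.946 to 1.05) and 0.990 (0.944 to 1.04), and NONRATT007736.2 took at most 2.61% of the reads there.

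Elsewhere the lowered transcript held most of the reads of its locus in normal glucose. NONRATT004088.2 took 99.5% or more of the reads of its locus in the 4 libraries. NONRATT018798.2 took 0% in high and 94.8% in normal glucose at 24 h, and 0% in high and 90.4% in normal glucose at 48 h. NONRATT003336.2 took 57.1% in high and 98.8% in normal glucose at 24 h, and 96.9% in high and 98.8% in normal glucose at 48 h. NONRATT021491.2 took 75.8% in high and 97.0% in normal glucose at 24 h, and 75.7% in high and 97.4% in normal glucose at 48 h. NONRATT007353.2 (chr12:19304991-19306191, 614 nt), with 4 reads in high and 34 in normal glucose at 24 h and 6 in high and 47 in normal glucose at 48 h, shared its locus with a single transcript of few reads. It took 57.1% in high and 87.2% in normal glucose at 24 h, and 60% in high and 87% in normal glucose at 48 h.

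At other loci the overlapping transcripts were also lower in high glucose, to varying degrees. The single other transcript at the locus of NONRATT021482.2 had 4 reads in high and 17 in normal glucose at 24 h, and 0 in high and 12 in normal glucose at 48 h, beside 10 in high and 41 in normal glucose, then 17 in high and 70 in normal glucose, for NONRATT021482.2 itself. NONRATT020414.2 (chr4:71741571-71746773, 739 nt) had 106 and 72 reads in high glucose at 24 h and 48 h and 199 and 171 in normal glucose. Its log2 ratio at 48 h was -1.13 but -0.96 with TMM factors and -0.94 with size factors, outside the rule. Its partner NONRATT020415.2 was 0.792 of normal glucose at 24 h (0.588 to 1.07) and 0.513 at 48 h (0.363 to 0.716). NONRATT020258.2 (chr4:45555145-45559075, 769 nt) had 29 and 21 reads in high glucose and 52 and 69 in normal glucose, and its partner NONRATT020259.2 was at 0.533 (0.310 to 0.905) and 0.740 (0.373 to 1.44). At these loci the sums were 0.183 to 0.526 of normal glucose over both times.

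NONRATT027438.2 shared its locus with 7 other transcripts. Of these, NONRATT027445.2 had a ratio of 0.787 at 24 h (0.530 to 1.17) and 0.964 at 48 h (0.667 to 1.39), and NONRATT027443.2 of 0.642 (0.347 to 1.18) and 0.437 (0.237 to 0.774). The largest locus was that of NONRATT024617.2 (chr6:133658933-133663317, 1516 nt), with 15 other transcripts. NONRATT024617.2 had 70 and 19 reads in high glucose at 24 h and 48 h and 177 and 109 in normal glucose, 3.33-fold (2.51 to 4.46) and 5.49-fold lower (3.35 to 9.47). The other 15 summed to 0.842 of normal glucose at 24 h (0.774 to 0.916) and 0.684 at 48 h (0.635 to 0.735), so the rest of the locus was lower to a smaller degree. Of the 15, NONRATT024632.2 stood at 33 reads in high and 26 in normal glucose at 24 h, and at 18 in high and 62 in normal glucose at 48 h, a ratio of 0.303 (0.169 to 0.519). At the locus of NONRATT025988.2 (chr7:102650147-102723586, 463 nt, 7 and 6 reads in high glucose, 34 and 49 in normal glucose), the ratio of NONRATT025985.2 was 0.854 at 24 h (0.568 to 1.29) and 0.546 at 48 h (0.315 to 0.924).

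Around the limit of the rule the transcripts form no gap. Just inside lay NONRATT005150.2, with a log2 ratio of -1.08 at 24 h, then NONRATT015019.2 with -1.06 at 48 h and NONRATT003336.2 with -1.01 at 48 h. Just outside lay MSTRG.15346.1 with -0.97 at 48 h, NONRATT004978.2 with -0.95 at 48 h and NONRATT028551.2 with -0.92 at 48 h. The first of these outside had 3 reads in high and 71 in normal glucose at 24 h, and 32 in high and 78 in normal glucose at 48 h.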

How the data were processed

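The authors deposited 1 table per library with raw read counts per lncRNA transcript and FPKM values, per the file headers; a transcript not listed was taken as 0. The authors deposited transcript lengths (nt) in the table of the normal glucose library at 24 h. The submitters' processing notes name TopHat2 2.1.0, Cufflinks, rn6 and Rnor_6.0 without saying what each did. Libraries were made with a strand-specific kit, per the labels. Not given in the sources used here are the counter, its strand setting and the annotation, so overlapping and antisense transcripts may share reads. Of 17934 identifiers, 0 were found in a RefSeq gene table.

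Library totals were recovered from count, length and FPKM as the median over transcripts with 50 reads or more and a deposited length; the length of 1219 others was then recovered. Counts of transcripts with a deposited length fitted within 1%, except 2 transcripts in each 24 h library. The rule and the counting intervals were tried on simulated counts that held counting error only, so this check does not cover spread between cultures. No test was run, since each group has 1 library. edgeR 4.0.16 (TMM) and DESeq2 1.42.0 (size factors) gave scaling alternatives only, and Python 3.11.15 did the rest. The members, lists and naming rule were chosen with earlier results of these data known. Named were the examples of the rule, the 8 deepest, the 5 most abundant, those not listed in high glucose, extremes of time ratio, length and ratio difference, and 3 on each side of the limit. All other members are named for completeness, and transcripts at shared loci and nearby were named after their values were seen.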

Additional observations from a re-analysis of the deposited data

Results flagged for a closer look

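A few results moved in opposite directions between groups, each with counting intervals clear of 1, and with 1 library per group the difference was not tested. NONRATT006276.2 went to 0.148 of its 24 h CPM by 48 h in high glucose (counting interval 0.0568 to 0.327) and to 2.01 times in normal glucose (1.70 to 2.39). NONRATT025987.2, at the locus of NONRATT025988.2, had 60 reads in high and 12 in normal glucose at 24 h, a CPM ratio of 3.79 (2.02 to 7.75), and 23 in high and 44 in normal glucose at 48 h, a ratio of 0.546 (0.315 to 0.924). NONRATT024619.2, which nearly matches the span of NONRATT024617.2, had a ratio of 1.76 (1.05 to 3.05) at 24 h and 0.531 (0.330 to 0.838) at 48 h.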

How the results depend on the processing

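The number of transcripts meeting the rule depended on the filter and the limit more than on the scaling. It was 40 as reported, 37 with TMM or size factors, 36 with a pseudocount of 1, 59 with 0.1, 34 with sums per locus and, as alternatives chosen after seeing the data, 43 with CPM + 0.5, 168 at 24 h alone and 373 at 48 h alone. Without the minimum of the mean count it was 87, of median length 686 nt, with 52 alone at their locus and 15 not listed in both high glucose libraries; the 47 added had a mean count under 20. With a mean count of 50 or more it was 21, of median length 1407 nt, with 14 alone. With a 4-fold limit it was 16, of which 62.5% were single blocks, 11 were alone, 2 were higher and 0 lower at 48 h in normal glucose, and 1 was lower at 48 h in high glucose. A pseudocount of 0.1 gave a median length of 1056 nt, above the 1019 nt of all 5033. It also gave 8 higher and 16 lower at 48 h in normal glucose and 16 lower in high glucose. A pseudocount of 1 gave 4 lower in normal glucose. Over 56 folds of named transcripts under TMM or size factors, none reversed, and values were between 0.872 and 0.971 times those reported; the 48 h drop of NONRATT004188.2 was 2.38-fold with TMM and 2.35-fold with size factors, and that of NONRATT003336.2 was 1.80-fold and 1.77-fold. NONRATT003336.2, NONRATT005775.2 and NONRATT020414.2 left the rule under both. Depth limits the transcripts with at most 3 reads in high glucose, whose folds span wide intervals. No paired analysis was possible because each group has 1 library.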
